A study of Mus musculus with 10 samples.

Results

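The genes described here are those of the interleukin-6 (IL-6) family signalling route, from the receptors at the cell surface to a secreted target. The members were listed by name: the receptor chains Osmr, Il6st, Lifr and Cntfr, the kinases Jak1, Jak2 and Tyk2, the transcription factor Stat3, its feedback inhibitor Socs3 and the target Serpina3n. Of these 10 genes, 9 were found among the 12575 genes of the table, and Socs3 was not analysed here. The question was whether Osmr, the receptor of oncostatin M, rose together with its pathway when astrocytes lost the clock gene Bmal1.

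RNA was measured in bulk cerebral cortex of 5 BMAL1 aKO and 5 Cre- mice on a C57BL/6 background, given as 4 months old in the labels and as older in the study's methods. BMAL1 aKO mice carried Aldh1l1-CreERT2 and Bmal1 fl/fl, so that Cre under an astrocyte promoter deletes Bmal1 after tamoxifen. The Cre- mice were littermates with the same floxed alleles but without Cre, and both groups were given tamoxifen. The labels list more BMAL1 aKO libraries than the study's text counts animals, and the text does not say which was dropped, so all were used and each was also left out in turn.

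As background, cytokines of the IL-6 family bind receptor chains that pair with gp130, the product of Il6st. The OSM receptor pairs OSMR with gp130, the LIF receptor pairs LIFR with gp130, and the CNTF receptor adds CNTFR, which is held to the membrane by a lipid anchor. The bound JAK kinases phosphorylate STAT3, which enters the nucleus and switches on SOCS3, an inhibitor that shuts the receptor down. In astrocytes STAT3 is known for its part in scar formation and in the expression of GFAP after injury.

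The 3 members with an unadjusted p below 0.05 in the comparison of all libraries were Osmr, Il6st and Jak1. Their promoters are shown because Osmr and Il6st encode both chains of the OSM receptor and Jak1 had a ratio of the opposite sign. Each is the 250 bases before the RefSeq start of the gene (GRCm38.p6), written along the gene's strand, with GC boxes (GGGCGG or CCGCCC, bound by SP1) in capitals. Osmr lies at chr15:6874314-6874563 on the minus strand, Il6st at chr13:112463820-112464069 on the plus strand and Jak1 at chr4:101265224-101265473 on the minus strand.
Osmr: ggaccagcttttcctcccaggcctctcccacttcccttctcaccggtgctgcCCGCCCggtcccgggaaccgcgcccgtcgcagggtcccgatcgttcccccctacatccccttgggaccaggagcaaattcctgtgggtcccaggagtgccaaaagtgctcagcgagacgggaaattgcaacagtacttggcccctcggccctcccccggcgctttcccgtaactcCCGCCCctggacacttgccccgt
Il6st: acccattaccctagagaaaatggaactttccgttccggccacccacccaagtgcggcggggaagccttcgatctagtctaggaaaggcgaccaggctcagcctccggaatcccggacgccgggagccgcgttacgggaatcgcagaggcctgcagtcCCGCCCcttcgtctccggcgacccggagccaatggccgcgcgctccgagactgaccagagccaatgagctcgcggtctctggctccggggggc
Jak1: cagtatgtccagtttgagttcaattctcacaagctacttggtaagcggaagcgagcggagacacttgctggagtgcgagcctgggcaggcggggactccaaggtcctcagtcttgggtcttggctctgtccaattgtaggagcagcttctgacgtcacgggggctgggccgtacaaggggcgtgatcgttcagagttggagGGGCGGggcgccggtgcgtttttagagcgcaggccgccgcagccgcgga

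GC boxes stood 198 and 23 bases before the start of Osmr, 93 bases before that of Il6st and 49 bases before that of Jak1. All 9 members had a RefSeq promoter, with 15 windows in all because Cntfr and Lifr have several starts. The windows of Osmr, Lifr and Cntfr lie inside the spans that GENCODE M21 gives these genes. Sites farther from the starts were not searched. None of the 15 windows held the E-box CACGTG, the letters bound by BMAL1 with CLOCK, against 6.02% of all 32851 windows of this length. The related E'-box (CACGTT or AACGTG) was found in 2 overlapping windows of Cntfr and in 3.85% of all windows. The STAT site TTCNNNGAA was in none of the 15 windows and in 7.02% of all, and GC boxes were in 10 of the 15 windows, those of 8 members, and in 32.7% of all. Only the E'-box and the GC box have different letters on the other strand, and both forms of each were searched.

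Between the groups, none of the 9 members passed an adjusted p of 0.1 (limma, Benjamini-Hochberg over 12573 genes), where 0.334% of all genes did. At an unadjusted p below 0.05 there were 3 of 9 members against 16.8% of all genes in limma, and 2 of 9 against 10.4% in voomWithQualityWeights, which called no member and 0.231% of all genes. The limma share depended on the library quality weights. Below 0.05 were 602 of 12573 genes without weights, and 591 without Cre- replicate 1, where the weights did not converge. Jak1 was among these genes in neither fit, Il6st in both and Osmr only in the fit without weights. In limma with weights and all libraries, Osmr and Il6st had positive fold changes and the other 7 members negative ones, with a median of -0.09 on the log2 scale against -0.04 over all genes. In bulk tissue, fewer cells of a type and less RNA per cell cannot be told apart.

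Osmr binds oncostatin M, a cytokine made by immune cells. It was at 7.86, 10.1, 6.10, 9.64 and 7.34 CPM across BMAL1 aKO replicates 1 to 5, against 5.26, 6.55, 5.65, 5.54 and 7.74 CPM in Cre- replicates 1 to 5. BMAL1 aKO replicates 1, 2 and 4 were above every Cre- library, while replicates 3 and 5 lay below Cre- replicate 5, so the groups overlapped. The means were 8.204 ± 1.65 CPM in BMAL1 aKO and 6.15 ± 1.013 CPM in Cre- cortex (SD, n = 5 each), a ratio of 1.33. The fitted log2 ratio of BMAL1 aKO over Cre-, on the log2(CPM + 0.5) scale used throughout, was 0.43 (SE, the standard error, 0.15, 95% interval 0.12 to 0.75, limma adjusted p = 0.192). Permuting the group labels of the libraries (two-sided exact permutation test) gave p = 0.0476, where the smallest p that 5 against 5 allows is 0.00794. Osmr was counted from 143 to 482 reads per library.

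The call for Osmr turned on single libraries. Without BMAL1 aKO replicate 3 its log2 ratio was 0.57 (SE 0.14, limma adjusted p = 0.0703) and Osmr passed, together with Jak1, which makes 2 of 9 members against 6.71% of all genes. In each direction there was 1 member, Osmr higher where 2.7% of all genes were and Jak1 lower where 4.02% were. With TMM scaling of the same 9 libraries, chosen after seeing the data, 1 of 9 members passed, Osmr, against 3.38% of all genes. In BMAL1 aKO replicate 3 Fabp7, a fatty acid-binding protein of astrocytes, was at 90.8 CPM, against 137 to 237 CPM in the other 4 BMAL1 aKO libraries and 9.94 to 19.9 CPM in Cre- libraries. Without Cre- replicate 1, which held 72.9% of the Cre- weight in the fit and had the lowest Osmr level of all libraries, the log2 ratio of Osmr was 0.16 (limma adjusted p = 0.928), with weights that did not converge. The part of these libraries' other differences in the Osmr value was not tested. All fits tried gave Osmr a positive difference, from 0.16 to 0.62 on the log2 scale.

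**Figure D1:**
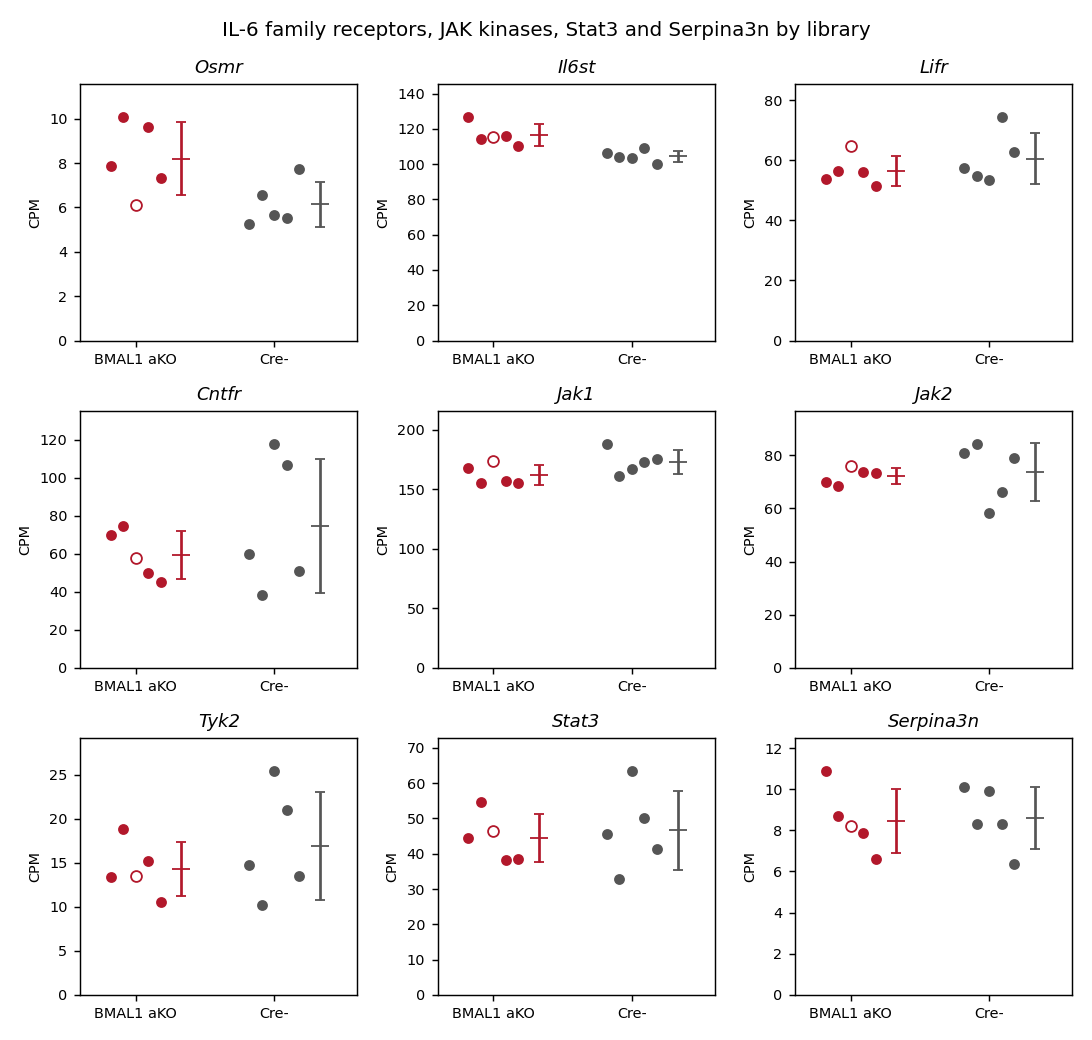
CPM of the 9 members in each library of BMAL1 aKO (red) and Cre- (grey) cortex, with each y axis starting at 0. Points run from replicate 1 to 5, the open circle is BMAL1 aKO replicate 3, and dashes with bars give the mean and SD of 5 libraries. In these deposited values, without TMM scaling, the groups overlapped for every member except Il6st. Its BMAL1 aKO libraries were at 110.1 CPM or more and its Cre- libraries at 109 CPM or less.

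Il6st encodes gp130, the chain shared by the whole family. It was at 127, 114, 115, 116 and 110.1 CPM across BMAL1 aKO replicates 1 to 5, against 106, 104, 103, 109 and 99.99 CPM in Cre- replicates 1 to 5. In the deposited values every BMAL1 aKO library was above every Cre- library. BMAL1 aKO replicate 5 and Cre- replicate 4 lay close together. Such a separation was seen in the deposited values for 0.62% of all genes, and Il6st was the only member with it. The means were 116 ± 6.16 CPM in BMAL1 aKO and 104 ± 3.31 CPM in Cre- cortex (SD, n = 5 each), a ratio of 1.11. The log2 ratio was 0.13 (SE 0.05, 95% interval 0.02 to 0.25, limma adjusted p = 0.249). The exact permutation test, added here after its values were seen, gave p = 0.00794, the smallest it allows. With every BMAL1 aKO library above every Cre- library it can give no other value, so it adds nothing to that separation. The separation did not hold after TMM scaling, which the study used (factors 1.03 for BMAL1 aKO replicate 2 and 0.923 for Cre- replicate 2). There Cre- replicate 2 stood above BMAL1 aKO replicate 2, so the groups overlapped. With that scaling the log2 ratio was 0.17 (limma adjusted p = 0.206), and Il6st passed in none of the fits tried.

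Lifr, the receptor of leukaemia inhibitory factor, was at 53.7, 56.5, 64.8, 56.0 and 51.5 CPM across BMAL1 aKO replicates 1 to 5, against 57.4, 54.6, 53.5, 74.4 and 62.7 CPM in Cre- replicates 1 to 5. The groups overlapped, with Cre- replicate 4 the highest of all libraries. Its log2 ratio was -0.04 (95% interval -0.21 to 0.13, limma adjusted p = 0.820).
Cntfr, which binds ciliary neurotrophic factor, varied most among the members in Cre- cortex, at 69.7, 74.5, 57.7, 49.7 and 44.9 CPM across BMAL1 aKO replicates 1 to 5, against 59.9, 38.5, 118, 106 and 50.9 CPM in Cre- replicates 1 to 5. The Cre- values spread on both sides of the BMAL1 aKO values, with a coefficient of variation of 21.4% in BMAL1 aKO and 47.1% in Cre- cortex. The log2 ratio was -0.09 (95% interval -0.44 to 0.26, limma adjusted p = 0.791).

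Jak1, the kinase most used by gp130, had a ratio of the opposite sign to Osmr and Il6st. It was at 168, 155, 173, 157 and 155 CPM across BMAL1 aKO replicates 1 to 5, against 188, 161, 167, 173 and 175 CPM in Cre- replicates 1 to 5. The groups overlapped, with Cre- replicate 1 above all other libraries and BMAL1 aKO replicates 2, 4 and 5 below every Cre- library. That order is of the deposited values. After TMM scaling Cre- replicate 3 (factor 1.10) lay below BMAL1 aKO replicates 4 and 5. The log2 ratio was -0.18 (SE 0.06, 95% interval -0.30 to -0.05, limma adjusted p = 0.192), while the difference of the plain mean log2 values was -0.10 (exact permutation test, p = 0.103). Without Cre- replicate 1, which held 72.9% of the Cre- weight, the fitted log2 ratio was -0.09 (limma adjusted p = 0.925), with weights that did not converge. Without BMAL1 aKO replicate 3 Jak1 fell by 0.22 on the log2 scale (limma adjusted p = 0.0872), but not with TMM scaling of the same 9 libraries, chosen after seeing the data (-0.16, limma adjusted p = 0.197). Jak1 overlaps Raver2 on the opposite strand, and the libraries do not mark strand, so its reads are uncertain to that extent.

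Jak2 and Tyk2, the other kinases of these receptors, gave no call in any fit tried. Jak2 was at 70.1, 68.5, 75.9, 73.8 and 73.3 CPM across BMAL1 aKO replicates 1 to 5, against 80.8, 84.2, 58.3, 66.3 and 79.2 CPM in Cre- replicates 1 to 5. The BMAL1 aKO values fell inside the range of the Cre- values, and the log2 ratio was -0.12 (95% interval -0.26 to 0.02, limma adjusted p = 0.364).
Tyk2 was at 13.3, 18.9, 13.4, 15.1 and 10.5 CPM across BMAL1 aKO replicates 1 to 5, against 14.7, 10.2, 25.3, 21.02 and 13.5 CPM in Cre- replicates 1 to 5. Its highest values were in Cre- replicates 3 and 4, and its log2 ratio was -0.09 (95% interval -0.39 to 0.21, limma adjusted p = 0.753). Tyk2 overlaps an antisense transcript, so its reads are uncertain in the same way.

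Stat3, the transcription factor at the end of the route, was at 44.5, 54.6, 46.3, 38.2 and 38.6 CPM across BMAL1 aKO replicates 1 to 5, against 45.5, 32.96, 63.3, 50.1 and 41.3 CPM in Cre- replicates 1 to 5. Its lowest and highest libraries were both Cre-, and all BMAL1 aKO values lay between them. The means were 44.4 ± 6.69 CPM in BMAL1 aKO and 46.6 ± 11.3 CPM in Cre- cortex (SD, n = 5 each). The log2 ratio was -0.04 (SE 0.10, 95% interval -0.25 to 0.18, limma adjusted p = 0.863; exact permutation test, p = 0.794), and its sign turned in 9 of 23 alternative fits, where it ran from -0.12 to 0.05. Stat3 overlaps Stat5a on the opposite strand in the annotation. RNA levels do not measure phosphorylated STAT3, the form that acts.

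Serpina3n, a secreted protease inhibitor induced in reactive astrocytes, was at 10.9, 8.67, 8.23, 7.87 and 6.63 CPM across BMAL1 aKO replicates 1 to 5, against 10.1, 8.33, 9.91, 8.33 and 6.35 CPM in Cre- replicates 1 to 5. The groups covered nearly the same range, and the means were 8.45 ± 1.55 CPM in BMAL1 aKO and 8.60 ± 1.51 CPM in Cre- cortex (SD, n = 5 each). The fitted log2 ratio of -0.18 (95% interval -0.48 to 0.13, limma adjusted p = 0.524) was weighted towards Cre- replicate 1, and without that library it was 0.16 (limma adjusted p = 0.925). The difference of the plain mean log2 values was -0.02 (exact permutation test, p = 0.929). Serpina3n belongs to a cluster of similar neighbouring genes, and how the counting treated reads shared among them was not examined.

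Cntfr, Tyk2 and Stat3 shared a pattern across the Cre- libraries that did not follow genotype. Each had its highest Cre- values in replicates 3 and 4 and its lowest in replicate 2, while Jak2 was lowest of all libraries in Cre- replicates 3 and 4. Cre- replicates 3 and 4 had the highest TMM factors of all libraries (1.10 and 1.07), and replicate 3 the lowest quality weight (0.181). The immediate early genes Fos and Junb were also highest there. Fos was at 11.6 to 29.1 CPM in BMAL1 aKO libraries, against 62.9 and 60.7 CPM in Cre- replicates 3 and 4 and 18.7 to 42.1 CPM in the other Cre- libraries. Junb was at 24.4 to 41.6 CPM in BMAL1 aKO libraries, against 81.6 and 77.5 CPM in Cre- replicates 3 and 4 and 27.6 to 44.6 CPM in the other Cre- libraries. The part of these library differences in the members' values was not tested.

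**Figure D2:**
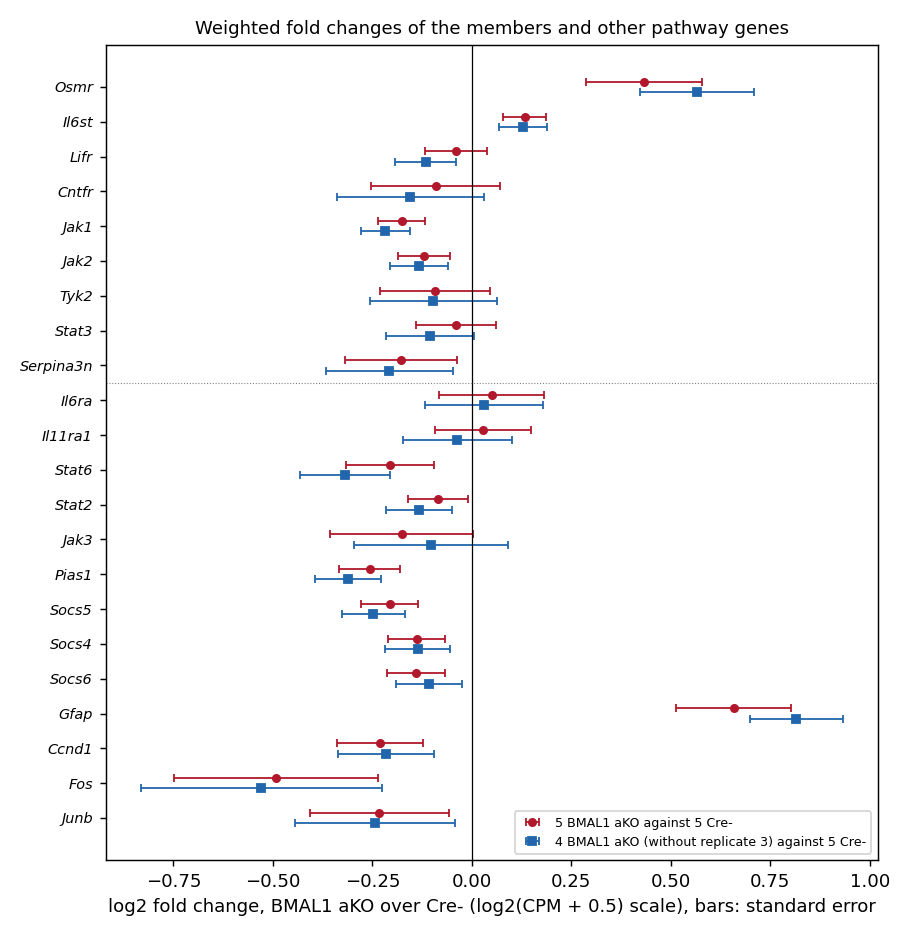
Log2 ratio (BMAL1 aKO over Cre-, log2(CPM + 0.5) scale, bars show 1 SE) of the 9 members (above the dotted line) and 13 other pathway genes, for 5 BMAL1 aKO libraries (circles) and without replicate 3 (squares). Values for 5 libraries run from -0.49 for Fos to 0.66 for Gfap, and Osmr and Il6st are the members to the right of 0.

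Of 58 other genes listed for the pathway, 33 were measured. None of the 33 passed, against 0.334% of all genes in limma and 0.231% in voomWithQualityWeights. At an unadjusted p below 0.05 there were 3 of 33 against 16.8% of all genes in limma, and 4 of 33 against 10.4% in voomWithQualityWeights. Their median log2 ratio was -0.08, against -0.04 over all genes, a value that was -0.0021 after TMM scaling. The 9 ligands of the family, among them Osm, Lif, Il6 and Cntf, were not analysed here. Of the 2 other receptor chains measured, Il6ra, the chain that binds IL-6 itself, averaged 4.24 ± 1.004 CPM in BMAL1 aKO and 4.33 ± 0.741 CPM in Cre- cortex (SD, n = 5 each). The other was Il11ra1, which binds IL-11, at 13.0 ± 1.70 CPM in BMAL1 aKO and 14.7 ± 3.73 CPM in Cre- cortex (SD, n = 5 each). Their log2 ratios were 0.05 for Il6ra and 0.03 for Il11ra1 (limma adjusted p = 0.870 and 0.922), and their signs turned in 5 and 9 of 23 alternative fits.

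None of the 5 remaining JAK and STAT genes measured passed (limma, 0 at an unadjusted p below 0.05), and their median was -0.08 on the log2 scale. Stat6, which acts downstream of IL-4, had a log2 ratio of -0.21 (limma adjusted p = 0.354), Stat2 of -0.08 (limma adjusted p = 0.575) and Jak3 of -0.18 (limma adjusted p = 0.627).

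Of 14 measured genes of the feedback list (SOCS and PIAS proteins, phosphatases and the adaptor Grb2), 12 had negative and 2 had positive fold changes, none past the threshold. Their median was -0.11 on the log2 scale, against -0.04 over all genes. The 2 positive ones were the phosphatase Ptpn2 (0.11) and Grb2 (0.0082), which is better known as an adaptor to Ras than as an inhibitor of JAK-STAT signalling. Pias1, a SUMO ligase that restrains STAT proteins, averaged 48.9 ± 4.51 CPM in BMAL1 aKO and 55.7 ± 5.82 CPM in Cre- cortex (SD, n = 5 each), a log2 ratio of -0.26 (limma adjusted p = 0.182). Without BMAL1 aKO replicate 3 Pias1 fell by 0.31 on the log2 scale (limma adjusted p = 0.0767), but it did not pass with TMM scaling of the same libraries (-0.25, limma adjusted p = 0.119). Socs5, a relative of Socs3, averaged 84.2 ± 5.87 CPM in BMAL1 aKO and 98.9 ± 14.0 CPM in Cre- cortex (SD, n = 5 each), a log2 ratio of -0.21 (limma adjusted p = 0.198). Socs4 and Socs6, of the same family, each had a log2 ratio of -0.14 (limma adjusted p = 0.337 and 0.345).

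Of 12 measured genes known as STAT3 targets or induced by these cytokines, 2 had positive and 10 had negative fold changes, and none passed. Their median was -0.07 on the log2 scale, against -0.04 over all genes. Gfap, the intermediate filament of reactive astrocytes, was at 279, 243, 134, 214 and 159 CPM across BMAL1 aKO replicates 1 to 5, against 117, 117, 138, 127 and 109 CPM in Cre- replicates 1 to 5. Only BMAL1 aKO replicate 3 lay among the Cre- libraries. The log2 ratio of Gfap was 0.66 (SE 0.14, limma adjusted p = 0.123; exact permutation test, p = 0.0159). Gfap passed without BMAL1 aKO replicate 3 (0.82, limma adjusted p = 0.0114) and, with all 10 libraries, after TMM scaling (0.70, limma adjusted p = 0.0882). The log2 ratios of the cyclin gene Ccnd1, Fos and Junb were -0.23, -0.49 and -0.23 (limma adjusted p = 0.30, 0.344 and 0.499).

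**Figure D3:**
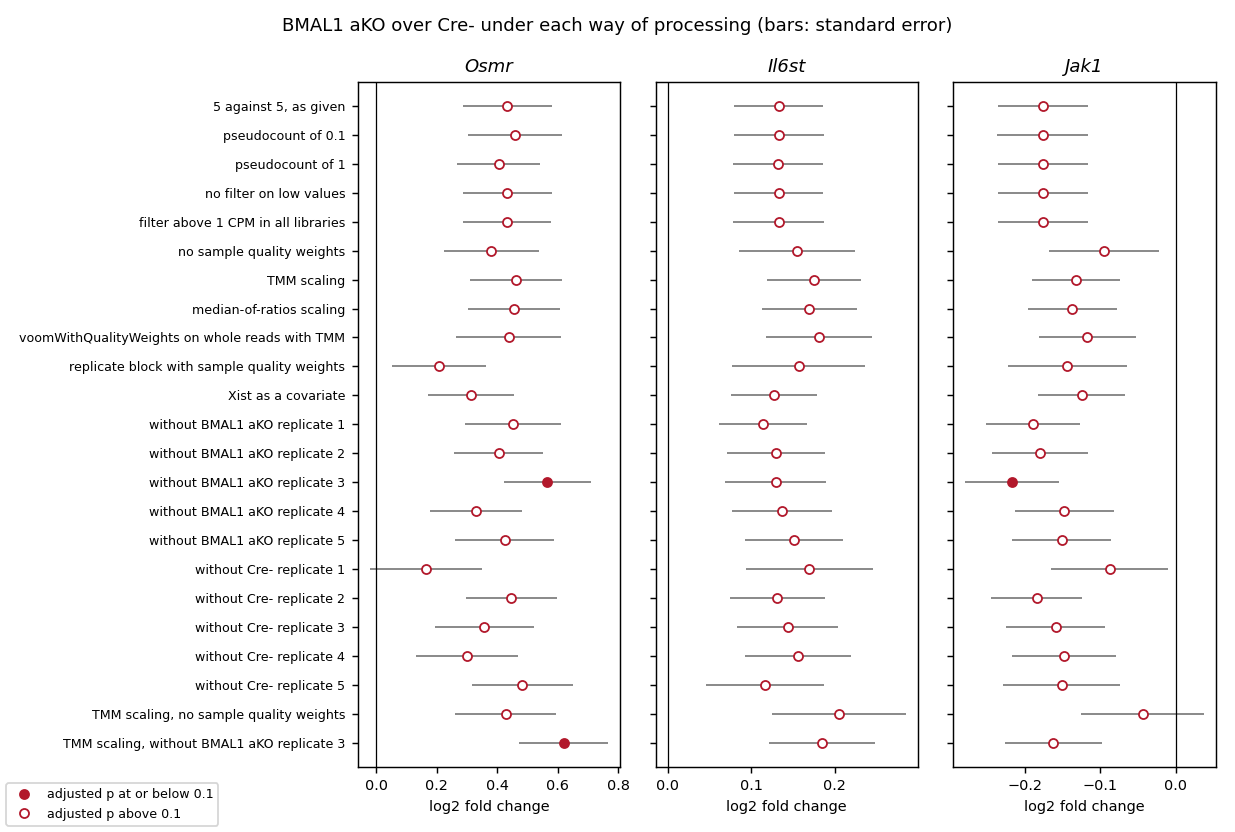
Log2 ratio of Osmr, Il6st and Jak1 (BMAL1 aKO over Cre-, bars show 1 SE) in each fit tried, filled where the adjusted p was at or below 0.1. Osmr runs from 0.16 without Cre- replicate 1 to 0.62 with TMM scaling and without BMAL1 aKO replicate 3, Il6st from 0.11 to 0.21 and Jak1 from -0.22 to -0.04.

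Whether Osmr varied with the other members from library to library was also examined. Each r and rho pooled the libraries of both groups, so a difference between the groups enters it. These values therefore cannot separate variation within a group from the group difference, which was positive for Osmr and Il6st and negative for Jak1. Over the 10 libraries, the largest of 8 correlations with the other members in the deposited values was negative, with Jak1 (Pearson r = -0.70, permutation p = 0.0248, adjusted over the 8 relations 0.199; Spearman rho = -0.58, permutation p = 0.0885, adjusted 0.708). Without the 2 libraries farthest from the median of Osmr, BMAL1 aKO replicates 2 and 4, this r was -0.49, and after TMM scaling of all libraries it was -0.20. With Il6st r was 0.42 (permutation p = 0.225, adjusted 0.679) and rho 0.47 (permutation p = 0.178, adjusted 0.713), and r was 0.29 without those libraries. After TMM scaling, the study's own, the relation with Il6st was instead the largest of the 8, and positive (r = 0.61, permutation p = 0.0595, adjusted 0.476; rho = 0.59, permutation p = 0.0809, adjusted 0.647), with r = 0.41 without the 2 farthest libraries. With Stat3 r was -0.21 (permutation p = 0.555, adjusted 0.740), rho was -0.28 (permutation p = 0.425, adjusted 0.749) and r without those libraries was -0.51. None of the 8 relations passed after adjustment, with deposited or TMM-scaled values, and 5 libraries per group are too few to give r within each group.

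The 5 genes whose log2 level was most like that of Osmr over the 10 libraries were Ptgds, Gja1, Nufip1, Gjb2 and Bmp7, at Pearson r of 0.904, 0.898, 0.886, 0.879 and 0.878. These were picked as the highest of all genes in the deposited values and are a description without a test. Genes of a library share its genotype and depth. Ptgds makes prostaglandin D2, Gja1 and Gjb2 are the connexins 43 and 26, and Bmp7 is a bone morphogenetic protein. Gja1 was at 253, 277, 226, 270.0 and 232 CPM across BMAL1 aKO replicates 1 to 5, against 177, 191, 176, 186 and 204 CPM in Cre- replicates 1 to 5, without overlap. It rose by 0.44 on the log2 scale (SE 0.07, limma adjusted p = 0.0273). It no longer passed without BMAL1 aKO replicate 4 (0.125) or without Cre- replicate 1, 3, 4 or 5 (limma adjusted p = 0.868, 0.120, 0.212 and 0.433), at log2 ratios of 0.33 to 0.45. The others did not pass, and Bmp7, at 22.5 ± 5.16 CPM in BMAL1 aKO and 16.8 ± 3.56 CPM in Cre- cortex (SD, n = 5 each), had a log2 ratio of 0.46 (limma adjusted p = 0.211). Among the 12572 other genes, Fabp7 ranked 69 and Gfap 109 in likeness to Osmr, while Il6st ranked 1509, Stat3 6883 and Jak1 12309. The ranks were not computed after TMM scaling, which moved r from 0.42 to 0.61 for Il6st and from -0.70 to -0.20 for Jak1.

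Markers of the cell types in the tissue were examined beside the members. Of 59 measured markers of 6 cell types, 1 passed (limma, against 0.334% of all genes), the astrocyte marker Gja1, and 9 had an unadjusted p below 0.05, against 16.8% of all genes. Positive ratios were found for 10 of 12 astrocyte, 10 of 12 microglial, 8 of 10 endothelial, 5 of 9 mural and fibroblast, 8 of 8 oligodendrocyte and 2 of 8 neuronal markers. The median log2 ratio over all genes was -0.04. The summed level of the astrocyte markers was 8030 to 9790 CPM in BMAL1 aKO and 6910 to 8443 CPM in Cre- libraries. The sums of the endothelial markers were 243 to 312 CPM in BMAL1 aKO and 250 to 308 CPM in Cre- libraries, and those of the mural and fibroblast markers 271 to 353 CPM in BMAL1 aKO and 279 to 322 CPM in Cre- libraries. The microglial sums were 287 to 385 CPM in BMAL1 aKO and 283 to 452 CPM in Cre- libraries, and the sums of all 6 lists overlapped between the groups.

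Single vascular and microglial markers had ratios near that of Osmr, and those given here were named after their values were seen. With all libraries the log2 ratios were 0.49 for Esam and 0.43 for Emcn, both of endothelial cells, and 0.38 for Aif1 and 0.31 for Fcrls, both of microglia (limma adjusted p = 0.183, 0.182, 0.192 and 0.189). Without BMAL1 aKO replicate 3, the setting in which Osmr passed, 5 of the 59 markers passed, against 6.71% of all genes. Esam, Aif1, Fcrls and Gja1 rose and the neuronal marker Syt1 fell, with log2 ratios of 0.56 for Esam, 0.52 for Aif1, 0.39 for Fcrls, 0.49 for Gja1 and -0.24 for Syt1 (limma adjusted p = 0.0938, 0.0701, 0.0753, 0.0158 and 0.0711). With TMM scaling of the same libraries Syt1 did not pass (-0.19, limma adjusted p = 0.163). The part of these cell types in the difference of Osmr was not tested. Arntl, which encodes BMAL1, was at 31.1 to 38.8 CPM in BMAL1 aKO and 31.9 to 37.1 CPM in Cre- libraries, and this bulk level does not check the labels, since Cre is directed to astrocytes and other cells keep the gene.

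**Figure D4:**
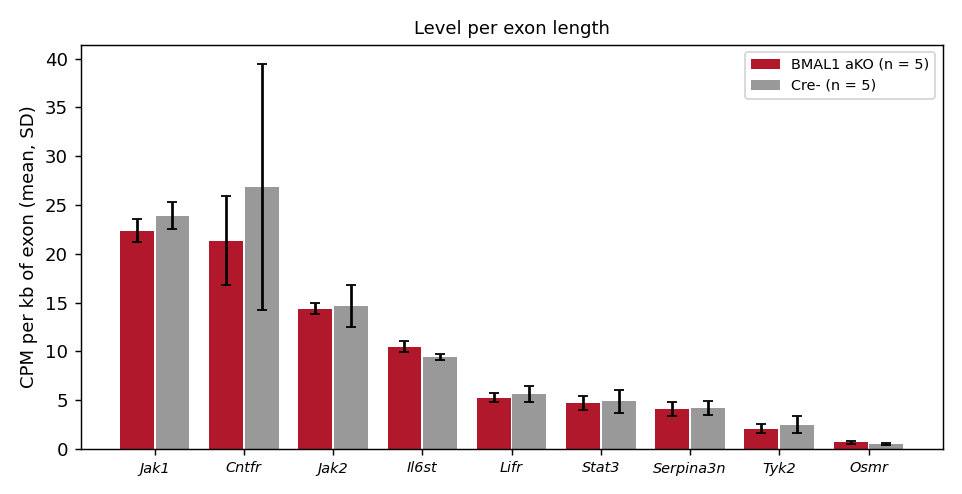
Level of each member per exon length (CPM per kb, bars are the mean of 5 libraries with SD) in BMAL1 aKO (red) and Cre- (grey) cortex, ordered by the BMAL1 aKO level. Osmr is the lowest, at 0.677 CPM per kb in BMAL1 aKO and 0.508 CPM per kb in Cre- cortex, and Jak1 and Cntfr are the highest.

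Levels of different genes were compared per kb of exon (GENCODE M21, all exons of a gene joined). Osmr was the lowest of the 9 members, at 0.677 ± 0.136 CPM per kb in BMAL1 aKO and 0.508 ± 0.0836 CPM per kb in Cre- cortex (SD, n = 5 each), and its exons total 12113 bases. Il6st, its partner chain, was at 10.5 ± 0.555 CPM per kb in BMAL1 aKO and 9.41 ± 0.298 CPM per kb in Cre- cortex. In BMAL1 aKO cortex the order from the top was Jak1 (22.4), Cntfr (21.3), Jak2 (14.4), Il6st (10.5), Lifr (5.24), Stat3 (4.67), Serpina3n (4.10), Tyk2 (2.08) and Osmr, in CPM per kb. The ranges of Jak1 and Cntfr, of Lifr and Stat3, and of Stat3 and Serpina3n overlapped between neighbours in that order. In Cre- cortex Cntfr, at 26.8 ± 12.6 CPM per kb, stood above Jak1, at 23.9 ± 1.39 CPM per kb, and its range reached that of Jak2.

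Osmr (ENSMUSG00000022146) and Lifr (ENSMUSG00000054263) are both on chromosome 15 of GRCm38, at chr15:6813577-6874969 on the minus strand and chr15:7090614-7197489 on the plus strand. Il6st (ENSMUSG00000021756) lies at chr13:112464070-112510086, Stat3 (ENSMUSG00000004040) at chr11:100885098-100939540 and Serpina3n (ENSMUSG00000021091) at chr12:104406729-104414329. Cntfr (ENSMUSG00000028444, chr4:41657498-41697089) and Jak1 (ENSMUSG00000028530, chr4:101152367-101265282) share chromosome 4. Jak2 (ENSMUSG00000024789) is at chr19:29251828-29313080 and Tyk2 (ENSMUSG00000032175) at chr9:21104068-21131243.

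Totals were 23127338 to 47964460 reads per BMAL1 aKO library (median 37058465) and 21844770 to 48295715 reads per Cre- library (median 40945149). Within a group, every pair of libraries differed beyond counting noise (12.9 to 447 as chi-square over its degrees of freedom, 20 pairs). Over all genes 36 were higher and 6 lower in BMAL1 aKO cortex. Without BMAL1 aKO replicate 3 these counts were 339 higher and 505 lower, and with TMM scaling of the same libraries 283 higher and 142 lower.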

How the data were processed

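Cortical RNA of 10 mice was made into libraries with a SMARTer low-input kit and read paired-end, without strand information. The authors used STAR 2.5.1a on the GRCm38 genome of Ensembl release 76, and featureCounts 1.4.6-p5 for the reads of each gene. The deposited values are CPM, without the TMM scaling that the methods name. All were whole numbers of reads (tolerance 0.01 read), which gave the totals. The filter, more than 1 CPM in 4 or more libraries, left 12573 of 12575 genes. limma 3.58.1 (R 4.3.3) was run on log2(CPM + 0.5) using library quality weights (arrayWeights), a variance trend and Benjamini-Hochberg adjustment, at the study's threshold of 0.1. This scale understates ratios of low genes. The mice were the replicates.

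The members and lists were chosen with earlier results of these data known. Genes named were all members, the genes of each pathway list with the smallest p (at most 4), the 5 most like Osmr, and as checks Arntl, Gfap, Fabp7, Aldh1l1 (log2 ratio -0.04, limma adjusted p = 0.865) and Xist. Xist, which marks female tissue, was high in BMAL1 aKO replicates 1 and 4 and Cre- replicates 2 and 3, and was tried as a covariate. Its fitted log2 ratio was 2.69 (SE 1.91), against 0.066 for the plain mean log2 values, so the weighted groups were unbalanced in sex. Without BMAL1 aKO replicate 3 the ratio of Xist was 4.35 (SE 2.06). With Xist as a covariate the log2 ratio was 0.31 for Osmr and -0.12 for Jak1 (limma adjusted p = 0.507 for each). A gene that the rule would name is not reported here. Positions and exon lengths were taken from GENCODE M21 (12550 of 12575 names found) and promoters from RefSeq. Python 3.11.15 and SciPy 1.17.1 were used for permutation tests. Alternatives were other pseudocounts, filters and scalings, no weights, a replicate block, Xist as a covariate, voomWithQualityWeights on whole reads, a threshold of 0.05, and each library left out.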

Additional observations from a re-analysis of the deposited data

How the results depend on the processing

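The number of genes past the threshold, 42 with all libraries, was 4 without quality weights, 68 with TMM scaling, 22 with Xist as a covariate and 20 at a threshold of 0.05, and 1 to 844 with a library left out, lowest without Cre- replicate 1 and highest without BMAL1 aKO replicate 3. TMM scaling was also combined with other changes, chosen after seeing the data: TMM scaling without weights gave 4 genes, and TMM scaling without BMAL1 aKO replicate 3 gave 425. Members called were 0 to 2 with a library left out and 1 (Osmr) in the last of these settings. Of 33 other pathway genes measured, 1 (Gfap) was called with TMM scaling and with median-of-ratios scaling, against 68 and 62 of all 12573 genes. With TMM scaling without BMAL1 aKO replicate 3 it was again Gfap alone, against 3.38% of all genes. With a library left out 0 to 2 of the 33 were called. The 2 were Gfap and Pias1 without BMAL1 aKO replicate 3, where 6.71% of all genes passed. Osmr was at 0.16 to 0.57 (log2 ratio) with a library left out and at 0.62 with TMM scaling without BMAL1 aKO replicate 3 (limma adjusted p = 0.0729), and stayed positive in all 23 alternatives, with adjusted p from 0.0703 to 0.928. Libraries that share a replicate number did not deviate together (r from -0.622 to 0.363 over 5 pairs, with 0 of them each other's best match), and with a replicate block 7 genes passed and Osmr was at 0.21 (limma adjusted p = 0.504).

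The sign of small differences, none past the threshold, depended on the setting, and the cause was not tested. With TMM scaling the log2 ratios were 0.0073 for Lifr and 0.012 for Stat3, and with median-of-ratios scaling 0.0016 and 0.0074. With Xist as a covariate they were 0.040 for Lifr and 0.050 for Stat3, and voomWithQualityWeights gave 0.027 for Stat3. Without quality weights Il6ra was at -0.038 and Il11ra1 at -0.16. With the replicate block Serpina3n was at 0.027, Il6ra at -0.20 and Il11ra1 at -0.20. TMM scaling without weights gave 0.035 for Jak2, 0.0024 for Stat3, 0.025 for Serpina3n, -0.11 for Il11ra1 and 0.0083 for Socs4. With a library left out the ranges were -0.14 to 0.014 for Lifr, -0.29 to 0.028 for Cntfr, -0.21 to 0.010 for Tyk2, -0.12 to 0.036 for Stat3, -0.24 to 0.16 for Serpina3n, -0.087 to 0.15 for Il6ra and -0.22 to 0.10 for Il11ra1. Quality weights did not converge without Cre- replicate 1 or without Cre- replicate 5. A planned quasi-likelihood count test was not run.

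Among the members, Osmr (143 to 482 reads per library) and Serpina3n (182 to 521 reads) had the fewest reads. The number of mice (5 per group), mixed sexes and bulk tissue limit the comparison, and protein and phosphorylated STAT3 were not measured.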
